A study of Mus musculus with 3 samples.

Results

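The glycolysis and glucose use genes are 36 genes chosen by symbol: the hexokinase genes Hk1, Hk2 and Hkdc1, the enzymes from glucose-6-phosphate isomerase to pyruvate kinase, lactate dehydrogenases, pyruvate dehydrogenase kinases, the enzymes that set fructose-2,6-bisphosphate, glucose and monocarboxylate transporters, and gluconeogenic enzymes. They are 36 of the 35019 gene names on the array, and 35 of them were among the 22433 genes bright enough to be tested. Pklr, the liver and red cell pyruvate kinase, was left out because no group had it well above background on all of its arrays. RNA was measured on 9 one-colour Agilent arrays of mouse ES cells, 3 per group. All cells derive from the male EB5 line, itself made from E14tg2a ES cells, and all carry a floxed or deleted Nr0b1 (Dax1) allele on their single X chromosome together with constitutively expressed MerCreMer, a Cre recombinase that 4-hydroxy tamoxifen (Tx) switches on, and Egfp. Nr0b1 KO/Y ES cells (KO/Y cells below) are established cells that had lost the floxed part of the gene, Nr0b1 fl-/Y+Tx ES cells (fl-/Y+Tx cells) had been kept with Tx for 4 days, and Nr0b1 fl-/Y-Tx ES cells (fl-/Y-Tx cells) still held the floxed gene and had no Tx. ES cells were grown in serum and LIF with or without mitomycin-treated embryonic fibroblast feeder cells, and the sources do not say which was used for the arrays or which clone each array holds.

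Glycolysis splits glucose into pyruvate in the cytosol, and lactate dehydrogenase turns pyruvate into lactate so that the pathway can go on without oxygen. Hexokinases trap glucose inside the cell as glucose-6-phosphate, phosphofructokinase commits it to the pathway, and pyruvate dehydrogenase kinases hold pyruvate back from the mitochondria. Mouse ES cells in culture use glucose by glycolysis as well as by respiration, and the balance between the pathways shifts when they leave the naive state.

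The signal of a probe is given as a multiple of the 75th percentile of its own array, so that 1 is that percentile, and fold changes are on the log2 scale. Nr0b1 itself had a signal of 0.0121 to 0.0136 in KO/Y, 0.158 to 0.187 in fl-/Y+Tx and 16.2 to 18.2 in fl-/Y-Tx cells. It was at least 357-fold lower in KO/Y than in fl-/Y-Tx cells (adjusted p of the fitted limma difference = 1.27e-10). Between 28805 and 32503 of 55681 probes per array were well above background, and arrays of 1 group correlated at 0.994 to 0.997 over the genes tested. The arrays lie on 2 slides. The KO/Y arrays share their slide with arrays 2 and 3 of fl-/Y+Tx cells, and the fl-/Y-Tx arrays share theirs with array 1 of fl-/Y+Tx cells, so that KO/Y and fl-/Y-Tx cells share no slide and a slide effect between them can be estimated only through the fl-/Y+Tx arrays. Each of 10 ES cell markers was detected on at least 1 array of each group, with a summed signal of 548 to 666 in KO/Y, 657 to 707 in fl-/Y+Tx and 737 to 777 in fl-/Y-Tx cells. So was each of 12 fibroblast markers, and their sum was 588 to 639 in KO/Y, 514 to 542 in fl-/Y+Tx and 422 to 447 in fl-/Y-Tx cells.

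Most of the pathway was lower in KO/Y than in fl-/Y-Tx cells, by modest amounts, while a small set of genes rose. Of the 35 genes tested, 21 (60%) were lower and 6 (17.1%) higher at an adjusted p under 0.05, beside 26.4% lower and 20.6% higher of all genes tested. The median log2 fold change was -0.34 over the 35 genes and -0.06 over all genes. Over 2-fold were Hkdc1, Fbp1 and Fbp2, which rose, and Ldhb, Slc2a1 and Aldoc, which fell, that is 6 of 35 genes beside 7.56% of all genes. With slide as a block, which rests on how array 1 of fl-/Y+Tx cells differs from arrays 2 and 3, 12 genes were lower and 3 higher, beside 12.2% lower and 9.58% higher of all genes in that fit. The calls that ended were those of Pfkl, Pfkm, Aldoa, Tpi1, Gapdh, Pgk1, Pgam1, Ldha and Pfkfb1, which had been lower, and of Eno2, Pfkfb2 and Pfkfb3, which had been higher. Leaving out 1 array ended the calls of Pfkm (adjusted p = 0.0634 to 0.138, without any array except fl-/Y+Tx array 3 and KO/Y array 1), Pgam2 (0.057 to 0.0914, without any array of KO/Y or fl-/Y-Tx cells) and Pfkl (0.067 to 0.081, without fl-/Y-Tx array 1 or 3 or KO/Y array 2). In RNA of whole cultures, fewer cells that express a gene and less of its RNA per cell cannot be told apart.

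Against fl-/Y+Tx cells, KO/Y cells had 18 of the 35 genes lower (51.4%) and 3 higher (8.57%), beside 14.1% lower and 12.1% higher of all genes. The median was -0.23 over the 35 genes and 0.01 over all genes. Over 2-fold were the same 3 rising genes, Hkdc1, Fbp1 and Fbp2, beside 3.42% of all genes. On their shared slide alone, with 3 KO/Y arrays and 2 fl-/Y+Tx arrays, 7 genes were lower (Ldhb, Hk2, Aldoc, Slc16a3, Pdk1, Pfkp and Gpi1) and the same 3 higher, beside 6% lower and 6.48% higher of all genes in that fit. Without a filter on dim probes 11 of 36 were lower, beside 6.49% of the 34997 genes then tested. Leaving out 1 array, of any group for Ldha, ended the calls of Ldha (adjusted p = 0.0539 to 0.13), of Aldoa (0.0576 to 0.12, without any array except fl-/Y+Tx array 3 and KO/Y array 2) and of Eno2 (0.0643 to 0.121, without fl-/Y-Tx array 2, any fl-/Y+Tx array or KO/Y array 2 or 3). It also ended that of Pfkl without fl-/Y+Tx array 1 or 2 or KO/Y array 2 (0.0538 to 0.0992) and that of Pgam1 without fl-/Y+Tx array 1 (0.0614).

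After 4 days with Tx the pathway had moved little against fl-/Y-Tx cells. Of the 35 genes, 5 (14.3%) were higher and 8 (22.9%) lower, beside 11.9% higher and 14.7% lower of all genes, and the median of -0.07 lay next to that of all genes, -0.06. Fbp1 was over 2-fold higher, beside 2.51% of all genes over 2-fold in either direction. Leaving out 1 array gave 3 to 5 higher genes, beside 8.7% to 12.3% of all genes, and with 3 they were Eno2, Fbp1 and Pfkfb3. Pfkm and Fbp2, which had been higher, and Pdk1 and Pdk3, which had been lower, lost their calls in this way (for Fbp2 and Pdk1 as given with these genes; adjusted p = 0.0608 to 0.0894 for Pfkm, without any fl-/Y-Tx array or fl-/Y+Tx array 1 or 3, and 0.056 to 0.12 for Pdk3, without fl-/Y-Tx array 2 or 3, fl-/Y+Tx array 1 or 2 or KO/Y array 3). The shared slide holds 1 fl-/Y+Tx array, so that no gene is called from it in either direction. Fbp1 had a signal of 0.561 on that array and 0.178, 0.242 and 0.184 on the fl-/Y-Tx arrays. The comparisons share groups pairwise, so that their values are set side by side for each gene below and are not independent of each other.

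**Figure D1:**
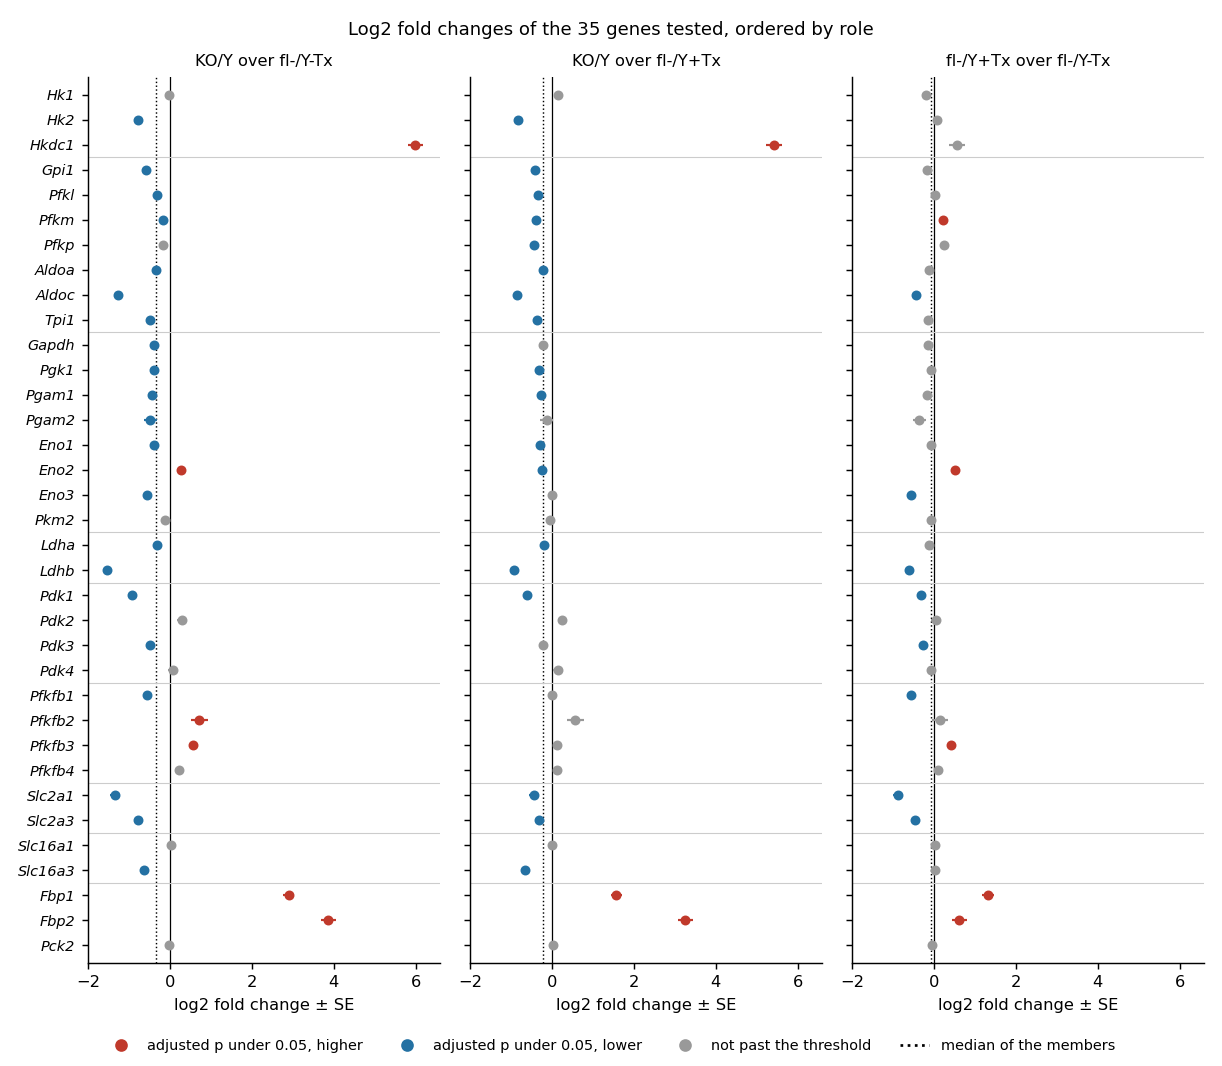
Each row is 1 of the 35 genes tested and each panel 1 comparison, with the log2 fold change from limma as a point, its standard error as a bar, the median of the 35 genes as a dotted line and grey lines between roles (from the top: hexokinases, upper steps, lower steps, lactate dehydrogenases, pyruvate dehydrogenase kinases, fructose-2,6-bisphosphate enzymes, glucose transporters, monocarboxylate transporters, gluconeogenic enzymes). In KO/Y over fl-/Y-Tx most points lie left of 0 and Hkdc1, Fbp1 and Fbp2 far to the right; the points of Hkdc1 are fitted values that set KO/Y against groups below background or, in the third panel, such groups against each other, and are no folds.

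The hexokinase genes went separate ways. Without them, 20 of the other 32 genes tested were lower (62.5%) and 5 higher in KO/Y over fl-/Y-Tx cells, with a median of -0.36. Over fl-/Y+Tx cells 17 were lower (53.1%) and 2 higher, with a median of -0.23. Of all genes, 26.4% were lower and 20.6% higher in the first comparison, and 14.1% and 12.1% in the second. The probes used lie at chr10:61731230-61731288 for Hk1, chr6:82675056-82675115 for Hk2 and chr10:61845922-61845981 for Hkdc1, in the mm9 coordinates of the array annotation. Hk1, the form that most cells keep on and that binds mitochondria, had a signal of 375, 455 and 448 on the 3 KO/Y arrays, 397, 385 and 358 on the fl-/Y+Tx arrays and 449, 424 and 429 on the fl-/Y-Tx arrays. The KO/Y values overlap those of both other groups. The log2 fold change was -0.03 in KO/Y over fl-/Y-Tx cells (SE 0.086, adjusted p = 0.801), 0.16 over fl-/Y+Tx cells (adjusted p = 0.212), and -0.19 in fl-/Y+Tx over fl-/Y-Tx cells (adjusted p = 0.135). Of the 3 probes of Hk1 none passed in any comparison, with log2 fold changes of -0.03 to 0.12 in KO/Y over fl-/Y-Tx cells. Without KO/Y array 1, the lowest of its group, the fold change over fl-/Y+Tx cells was 0.25 and passed (adjusted p = 0.031), and so did -0.19 in fl-/Y+Tx over fl-/Y-Tx cells (adjusted p = 0.0459).

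Hk2, the inducible hexokinase of muscle, fat and proliferating cells, fell. Its signal was 2.36, 2.18 and 2.26 in KO/Y, 4, 3.6 and 4.61 in fl-/Y+Tx, and 3.83, 3.8 and 3.98 in fl-/Y-Tx cells. All KO/Y arrays lie below all others, and the other groups overlap. The log2 fold change was -0.77 in KO/Y over fl-/Y-Tx cells (SE 0.091, adjusted p = 0.000193) and -0.84 over fl-/Y+Tx cells (adjusted p = 0.000337). In fl-/Y+Tx over fl-/Y-Tx cells it was 0.07 (adjusted p = 0.627).

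Hkdc1, a hexokinase-like gene whose human product has been described as a hexokinase with low activity, was well above background on the KO/Y arrays alone. Its probe gave 1.01, 0.787 and 0.966 there, 0.0291, 0.0181 and 0.0183 in fl-/Y+Tx cells and 0.0145, 0.0162 and 0.0127 in fl-/Y-Tx cells, and none of the 6 fl-/Y arrays had it well above background. For a bound, the dim groups were set at the higher of the lowest signal well above background on the array and the probe's own signal. Hkdc1 was then at least 16.4-fold higher in KO/Y than in fl-/Y-Tx cells and at least 15.9-fold higher than in fl-/Y+Tx cells. The limma fit gave adjusted p = 1.06e-07 and 2.02e-06, which belong to fitted differences from signals below background and not to these bounds. The filter kept the probe through the KO/Y arrays alone, so these p-values are no separate support. The counts above of genes higher in KO/Y cells include Hkdc1. Between fl-/Y+Tx and fl-/Y-Tx cells both signals were below background, so that no fold and no test is given. Under normexp background correction, which adds an offset of 50 to every signal, the fitted difference of Hkdc1 was smaller, at 2.57 on the log2 scale in KO/Y over fl-/Y-Tx cells (adjusted p = 7.78e-09) and 2.53 over fl-/Y+Tx cells (adjusted p = 5.91e-08), so that the size of the rise depends on the background correction. Among the other 33 genes on the list, only Fbp1 and Fbp2 also passed 2-fold upwards in KO/Y over either group of fl-/Y cells.

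**Figure D2:**
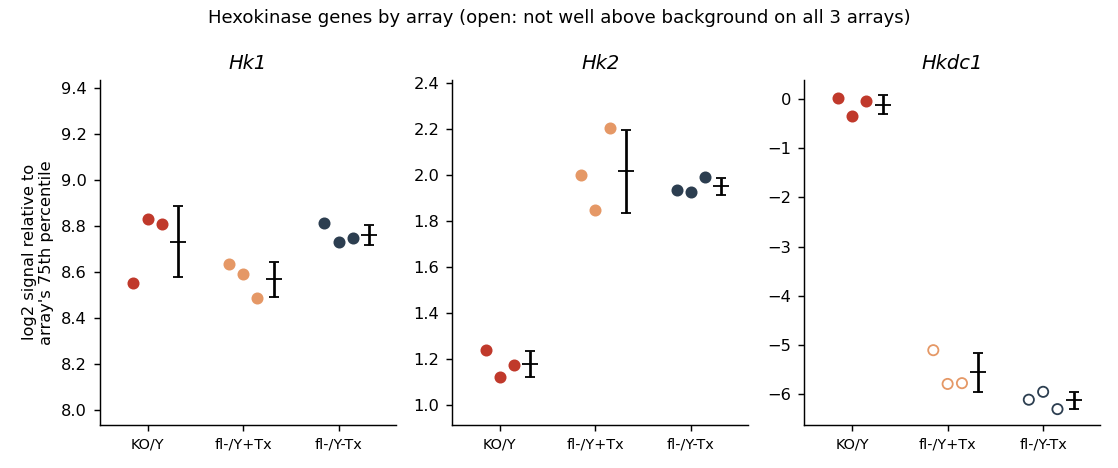
Points are the log2 signal of each array relative to its 75th percentile, for Hk1, Hk2 and Hkdc1 in KO/Y, fl-/Y+Tx and fl-/Y-Tx cells, with the mean and SD of the 3 arrays beside them; the vertical scales differ between panels. Hk1 overlaps between groups, Hk2 is lowest on the 3 KO/Y arrays, and Hkdc1 is well above background on those 3 arrays alone.

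Markers of other cell types moved in the same comparisons as Hkdc1. Of 14 primitive and visceral endoderm markers 10 were tested, and all 10 were higher in KO/Y cells than in either fl-/Y group. Of all genes, 20.6% were higher over fl-/Y-Tx cells and 12.1% over fl-/Y+Tx cells. The summed signal of the 14 was 6.71 to 8.72 in KO/Y, 3 to 3.49 in fl-/Y+Tx and 2.26 to 2.54 in fl-/Y-Tx cells, while Afp and Apoa1 never stood clear of background. Sox17, an endoderm transcription factor, was at least 5.41-fold higher in KO/Y than in fl-/Y-Tx cells (adjusted p of the fitted limma difference = 8.52e-05). Sox17 was well above background on no fl-/Y array, and Hnf4a on no fl-/Y+Tx array. The filter kept Sox17 through KO/Y cells alone, so it could not come out lower. The count of 10 is thus in part fixed by the filter. Of the ES cell markers 5 were lower and 0 higher than in fl-/Y-Tx cells, and all 12 fibroblast markers were higher. The shares of all genes were 26.4% lower and 20.6% higher. Of 7 trophectoderm markers 6 were tested, and 5 were higher and 1 lower than in fl-/Y-Tx cells. Krt7, like Sox17, was well above background on no fl-/Y array and was kept through KO/Y cells alone. The sum of the 7 was 19.3 to 20.7 in KO/Y, 6.16 to 6.6 in fl-/Y+Tx and 12.3 to 12.5 in fl-/Y-Tx cells, while Elf5 never stood clear of background. The part of these cells, and that of feeder cells, in the change of Hkdc1 and of the other genes described here was not tested.

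In the mouse genome Hkdc1 lies next to Hk1. The promoter windows of RefSeq on GRCm38.p6 span 250 bases before to 50 bases after a gene start, and were searched on both strands for ACGTG, a core shared by the hypoxia response element and the E-box, and for CACGTG, the E-box, which contains it. Of the 36 genes, 35 had a window, and 18 of these (51.4%) held ACGTG, beside 21.8% of all genes with a window. The genes on the list have more windows per gene, and by window the shares were 40.0% of 55 windows beside 19.6% of all windows. CACGTG was in 7 of the 35 genes (20%), beside 8.09% of all genes. ACGTG was present in 11 of 20 genes that were lower in KO/Y over fl-/Y-Tx cells and have a window, in 3 of 6 that were higher and in 4 of 8 that did not pass. The hexokinase genes that moved are shown here with the 250 bases before their start, at chr10:62422458-62422707, minus strand for Hkdc1 and chr6:82774455-82774704, minus strand for Hk2, with ACGTG on either strand in capitals. Hk2 holds 2 matches and Hkdc1 holds none.
Hkdc1: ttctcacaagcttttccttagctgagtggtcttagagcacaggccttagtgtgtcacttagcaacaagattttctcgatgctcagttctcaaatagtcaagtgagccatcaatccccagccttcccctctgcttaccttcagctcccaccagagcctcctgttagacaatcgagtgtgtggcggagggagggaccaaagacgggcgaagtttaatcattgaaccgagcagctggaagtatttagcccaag
Hk2: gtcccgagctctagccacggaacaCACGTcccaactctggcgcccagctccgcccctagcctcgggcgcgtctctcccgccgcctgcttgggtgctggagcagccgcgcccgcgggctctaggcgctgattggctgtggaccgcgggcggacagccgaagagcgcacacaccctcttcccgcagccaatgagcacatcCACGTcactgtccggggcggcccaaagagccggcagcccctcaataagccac

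The upper steps, from glucose-6-phosphate isomerase to triose phosphate isomerase, were mostly lower in KO/Y cells. Over fl-/Y+Tx cells all 7 genes were lower, beside 14.1% of all genes, and on the shared slide alone Aldoc, Pfkp and Gpi1 passed. Over fl-/Y-Tx cells 6 of 7 were lower, beside 26.4% of all genes, with a median of -0.34. With slide as a block the calls of Pfkl, Pfkm, Aldoa and Tpi1 over fl-/Y-Tx cells ended. Aldoc, the aldolase typical of brain, moved most. Its signal was 4.53, 4.59 and 4.61 in KO/Y, 8.22, 7.92 and 8.48 in fl-/Y+Tx and 11.5, 10.7 and 11.1 in fl-/Y-Tx cells. The 3 groups do not overlap, and the order of KO/Y below fl-/Y+Tx below fl-/Y-Tx cells holds for every pair of arrays. The log2 fold changes were -1.28 in KO/Y over fl-/Y-Tx (SE 0.057, adjusted p = 8e-07), -0.84 in KO/Y over fl-/Y+Tx (adjusted p = 3.02e-05) and -0.43 in fl-/Y+Tx over fl-/Y-Tx cells (adjusted p = 0.00112).

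The other upper enzymes changed less. Gpi1, the isomerase that makes fructose-6-phosphate, fell by 0.58 on the log2 scale in KO/Y over fl-/Y-Tx cells (adjusted p = 5.54e-05), and all 3 of its probes passed. Tpi1, which interconverts the triose phosphates, fell by 0.50 (adjusted p = 0.000516), with both probes past the threshold. Aldoa, the widely expressed aldolase, fell by 0.34 (adjusted p = 0.00339). The phosphofructokinase subunits, which commit sugar to glycolysis, fell by 0.31 (Pfkl, adjusted p = 0.0245) and 0.17 (Pfkm, adjusted p = 0.0473), while Pfkp at -0.18 did not pass (adjusted p = 0.149). Over fl-/Y+Tx cells they were at -0.33, -0.38 and -0.44, and all passed. Pfkp has a second, dimmer probe that did not pass, at 0.24, so its fall rests on 1 of 2 probes.

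At the lower steps, from glyceraldehyde-3-phosphate to pyruvate, 6 of 8 genes tested were lower and 1 higher in KO/Y over fl-/Y-Tx cells. The shares of all genes were 26.4% lower and 20.6% higher. With slide as a block the calls of Gapdh, Pgk1, Pgam1 and Eno2 ended. Over fl-/Y+Tx cells 4 were lower and 0 higher, beside 14.1% lower and 12.1% higher of all genes. None of them was among the genes lower on the shared slide alone. Gapdh, glyceraldehyde-3-phosphate dehydrogenase and a common control gene, had a signal of 581, 688 and 684 in KO/Y, 799, 815 and 671 in fl-/Y+Tx and 864, 825 and 837 in fl-/Y-Tx cells. The KO/Y arrays lie below all fl-/Y-Tx arrays and overlap those of fl-/Y+Tx cells, of which array 3 is the lowest. The log2 fold change was -0.38 in KO/Y over fl-/Y-Tx cells (SE 0.097, adjusted p = 0.0121) and -0.23 over fl-/Y+Tx cells (adjusted p = 0.126). This probe was the brightest of 8 and the array annotation places it on chromosome 7, at chr7:59003199-59003257 of mm9, which is not the place of Gapdh itself, so the signal of this gene and of its copies may not be separated. All 8 Gapdh probes were lower in KO/Y over fl-/Y-Tx cells, at -0.70 to -0.38. Over fl-/Y+Tx cells the 8 spanned -0.45 to -0.20, and 5 passed.

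Pkm2, the pyruvate kinase gene that proliferating cells use and RefSeq calls Pkm, did not pass in any comparison. Its signal was 75.9, 79.2 and 81.3 in KO/Y, 82.3, 83.4 and 79.4 in fl-/Y+Tx and 85.5, 83.8 and 87.4 in fl-/Y-Tx cells. KO/Y arrays overlap fl-/Y+Tx arrays and lie under fl-/Y-Tx arrays by a small step, at -0.12 in KO/Y over fl-/Y-Tx cells (SE 0.057, adjusted p = 0.12). Eno3, the muscle enolase, had 1.80, 2.13 and 2.04 in KO/Y, 2.01, 1.88 and 2.03 in fl-/Y+Tx and 3.05, 2.87 and 2.81 in fl-/Y-Tx cells. The first 2 groups overlap and both lie below the third. The change was -0.55 in KO/Y over fl-/Y-Tx (adjusted p = 0.000523), 0.01 in KO/Y over fl-/Y+Tx (adjusted p = 0.931) and -0.56 in fl-/Y+Tx over fl-/Y-Tx cells (adjusted p = 0.00146).

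Eno1, the main enolase outside muscle and neurons, fell by 0.38 in KO/Y over fl-/Y-Tx cells (adjusted p = 0.000447), and Pgam1, a phosphoglycerate mutase, fell by 0.43 (adjusted p = 0.00068). Pgk1, phosphoglycerate kinase, fell by 0.38 (adjusted p = 0.00238), but the annotation places its probe on chromosome 3 and not on the X, so copies of the gene may share its signal. Pgam2, the muscle mutase, fell by 0.48 (adjusted p = 0.0334). Its fl-/Y+Tx arrays were apart, at 0.664 on the slide of the fl-/Y-Tx arrays and at 1.02 and 1.04 on the slide of the KO/Y arrays. Eno2, the neuronal enolase, was the exception, higher by 0.28 in KO/Y over fl-/Y-Tx (adjusted p = 0.0131) and by 0.52 in fl-/Y+Tx over fl-/Y-Tx cells (adjusted p = 0.00148), and it was at -0.24 in KO/Y over fl-/Y+Tx cells (adjusted p = 0.0385). Pklr was well above background on 0, 2 and 0 arrays of KO/Y, fl-/Y+Tx and fl-/Y-Tx cells, and no fold is given for it.

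**Figure D3:**
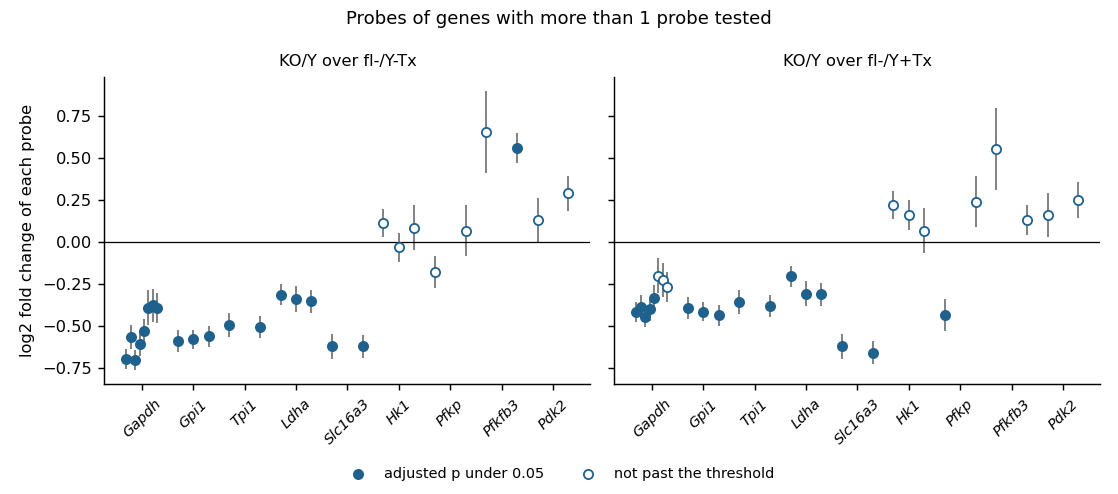
Each point is the log2 fold change of 1 probe with its standard error, for the 9 genes with over 1 probe tested, in KO/Y over fl-/Y-Tx (left) and over fl-/Y+Tx cells (right); filled points passed an adjusted p under 0.05 over all probes. The 8 probes of Gapdh and the 3 of Gpi1 all lie below 0, and the 3 of Hk1 lie close to it.

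The lactate dehydrogenase subunits fell by unequal amounts. Ldha, the subunit that favours lactate production, had a signal of 346, 365 and 374 in KO/Y, 404, 436 and 410 in fl-/Y+Tx and 458, 436 and 454 in fl-/Y-Tx cells. KO/Y arrays lie below all others. The change was -0.31 in KO/Y over fl-/Y-Tx cells (SE 0.061, adjusted p = 0.00287) and -0.20 over fl-/Y+Tx cells (adjusted p = 0.0389), and its 3 probes passed in both when all 9 arrays were used. Ldhb, the subunit of heart and other respiring tissues, had 19.3, 18.9 and 21.0 in KO/Y, 36.6, 38.0 and 37.6 in fl-/Y+Tx and 57.6, 58.7 and 55.3 in fl-/Y-Tx cells. The 3 groups are far apart beside the spread of their arrays. Of the 35 genes Ldhb fell most in both comparisons of KO/Y cells. It was at -1.54 in KO/Y over fl-/Y-Tx (SE 0.062, adjusted p = 4.19e-07), -0.92 over fl-/Y+Tx (adjusted p = 2.99e-05) and -0.61 in fl-/Y+Tx over fl-/Y-Tx cells (adjusted p = 0.000305).

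Of the pyruvate dehydrogenase kinases, which shut the entry of pyruvate into the mitochondrial cycle, Pdk1 and Pdk3 fell. Pdk1, the member that hypoxia induces, had a signal of 2.88, 2.63 and 2.69 in KO/Y, 4.22, 3.85 and 4.53 in fl-/Y+Tx and 5.17, 5.27 and 5.19 in fl-/Y-Tx cells. Again the 3 groups do not overlap. The change was -0.93 in KO/Y over fl-/Y-Tx (SE 0.074, adjusted p = 2.22e-05), -0.62 over fl-/Y+Tx (adjusted p = 0.000546) and -0.32 in fl-/Y+Tx over fl-/Y-Tx cells (adjusted p = 0.015). The last call ended without fl-/Y-Tx array 2 (adjusted p = 0.0547) or fl-/Y+Tx array 2 (0.05). Pdk3 was at -0.49 in KO/Y over fl-/Y-Tx cells (adjusted p = 0.00106). Pdk2 did not pass there, at 0.29 (adjusted p = 0.0508), nor did Pdk4, a gene that fasting induces in muscle, at 0.07 (adjusted p = 0.625).

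Both glucose transporter genes were lower at each step when all 9 arrays were used. Neither was among the genes lower in KO/Y over fl-/Y+Tx cells on the shared slide alone. Slc2a1, which encodes GLUT1, had a signal of 18.7, 14.2 and 15.7 in KO/Y, 21.4, 19.2 and 25.4 in fl-/Y+Tx and 40.3, 40.4 and 40.5 in fl-/Y-Tx cells. The fl-/Y-Tx arrays stand well above the rest, and the gap between KO/Y and fl-/Y+Tx arrays is narrow. The change was -1.33 in KO/Y over fl-/Y-Tx (SE 0.124, adjusted p = 5.24e-05), -0.44 over fl-/Y+Tx (adjusted p = 0.0303) and -0.89 in fl-/Y+Tx over fl-/Y-Tx cells (adjusted p = 0.00147). The call over fl-/Y+Tx cells ended without fl-/Y+Tx array 1 or 3 or KO/Y array 2 or 3 (adjusted p = 0.0653 to 0.0923). Slc2a3, which encodes the high-affinity transporter GLUT3, had 21.3, 19.6 and 21.2 in KO/Y, 23.9, 25.0 and 27.9 in fl-/Y+Tx and 34.9, 34.6 and 36.1 in fl-/Y-Tx cells. Its groups are ordered in the same way and do not overlap. Slc2a3 was at -0.77 in KO/Y over fl-/Y-Tx (adjusted p = 6.43e-05), -0.30 over fl-/Y+Tx (adjusted p = 0.017) and -0.46 in fl-/Y+Tx over fl-/Y-Tx cells (adjusted p = 0.00292). Its call over fl-/Y+Tx cells ended without KO/Y array 2 (adjusted p = 0.0576). The window of Slc2a1 is shown because it is the transporter that fell most, at chr4:119108495-119108744, plus strand, with its 1 ACGTG, which begins 36 bases before the start, in capitals. Slc2a3 had no window.
Slc2a1: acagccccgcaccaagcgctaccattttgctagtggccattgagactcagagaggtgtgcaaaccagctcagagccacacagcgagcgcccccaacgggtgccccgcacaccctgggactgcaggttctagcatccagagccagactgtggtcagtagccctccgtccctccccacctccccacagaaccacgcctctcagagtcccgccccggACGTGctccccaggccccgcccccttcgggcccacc

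Slc16a3, which encodes the lactate exporter MCT4, fell in KO/Y cells by 0.62 over fl-/Y-Tx (adjusted p = 0.000108) and by 0.66 over fl-/Y+Tx cells (adjusted p = 0.000228), with both probes past the threshold. Between fl-/Y+Tx and fl-/Y-Tx cells it was at 0.04 (adjusted p = 0.716). Slc16a1, which encodes MCT1, lay within 0.03 of 0 in all 3 comparisons and did not pass.

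**Figure D4:**
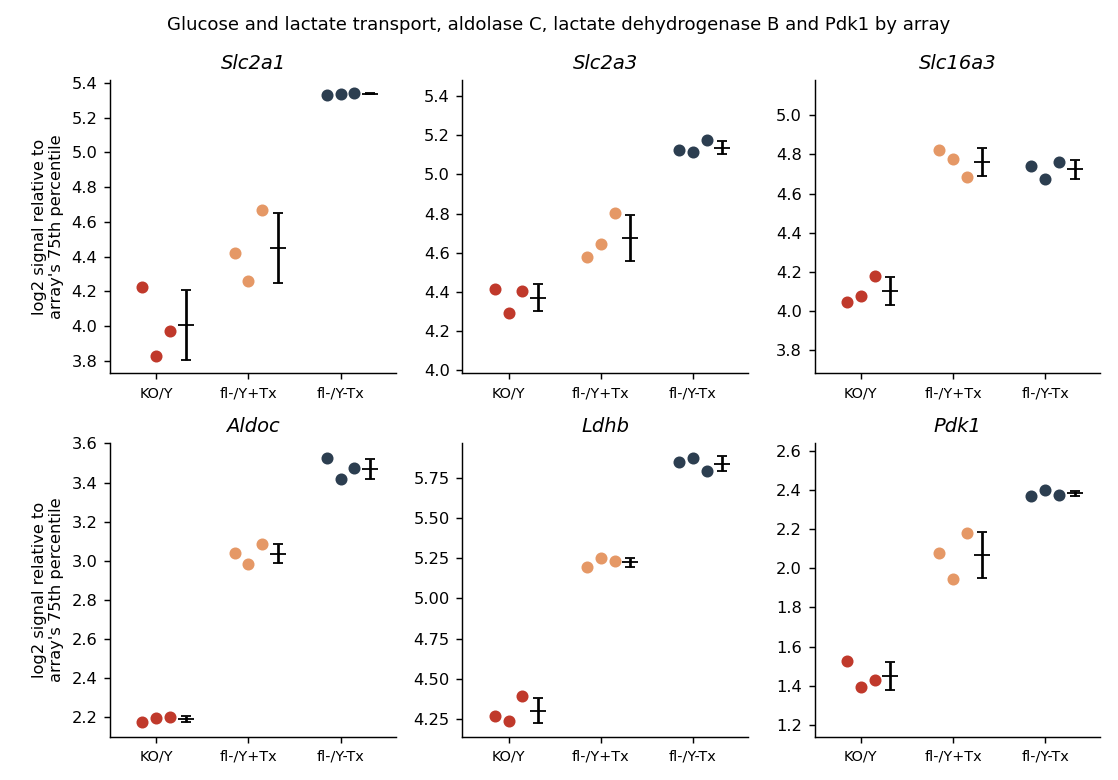
Points are the log2 signal of each array relative to its 75th percentile for 6 genes that fell in KO/Y cells, with the mean and SD of 3 arrays beside them; the vertical scales differ. Slc2a1, Slc2a3, Aldoc, Ldhb and Pdk1 take 3 separate levels, lowest in KO/Y cells, while Slc16a3 is lowest in KO/Y cells and overlaps between the fl-/Y groups.

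The bifunctional enzymes that make and break fructose-2,6-bisphosphate, the activator of phosphofructokinase, moved in both directions. Pfkfb1, the liver and muscle form, had a signal of 1.31, 1.39 and 1.31 in KO/Y, 1.39, 1.2 and 1.43 in fl-/Y+Tx and 1.93, 2.04 and 1.94 in fl-/Y-Tx cells. The first 2 groups overlap below the third. It was at -0.56 in KO/Y over fl-/Y-Tx (adjusted p = 0.000436) and in fl-/Y+Tx over fl-/Y-Tx cells (adjusted p = 0.00137). Pfkfb3, the form with the strongest kinase side, rose by 0.56 in KO/Y over fl-/Y-Tx (adjusted p = 0.00095) and by 0.43 in fl-/Y+Tx over fl-/Y-Tx cells (adjusted p = 0.00926). A second, dimmer Pfkfb3 probe did not pass, at 0.66 (adjusted p = 0.0578) and 0.10 (adjusted p = 0.802). With slide as a block the calls of Pfkfb1 and Pfkfb3 in KO/Y over fl-/Y-Tx cells ended. Pfkfb2, the heart form, was well above background on 2 of 3 arrays of each fl-/Y group and at 0.72 in KO/Y over fl-/Y-Tx cells (adjusted p = 0.019). It turned to -0.05 with slide as a block (adjusted p = 0.886) and did not pass without fl-/Y-Tx array 1 (adjusted p = 0.0628). Pfkfb4, at 0.22 in KO/Y over fl-/Y-Tx cells (adjusted p = 0.115), did not pass in any comparison.

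The largest rises outside the hexokinases were those of the fructose-1,6-bisphosphatases, which undo the phosphofructokinase step in gluconeogenesis. Fbp1, the liver form, had a signal of 1.33, 1.51 and 1.64 in KO/Y, 0.561, 0.444 and 0.501 in fl-/Y+Tx and 0.178, 0.242 and 0.184 in fl-/Y-Tx cells. The 3 groups do not overlap, with KO/Y highest. The log2 fold change was 2.90 in KO/Y over fl-/Y-Tx (SE 0.141, adjusted p = 1.33e-06), 1.58 over fl-/Y+Tx (adjusted p = 0.000133) and 1.32 in fl-/Y+Tx over fl-/Y-Tx cells (adjusted p = 0.000391).

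Fbp2, the muscle form, had 1.11, 0.986 and 1.06 in KO/Y, 0.138, 0.0923 and 0.106 in fl-/Y+Tx and 0.0844, 0.0560 and 0.0786 in fl-/Y-Tx cells, where it was well above background on 2 of 3 arrays. KO/Y arrays are far above both fl-/Y groups, which lie close together. On the log2 scale the fl-/Y-Tx mean of -3.80 is near the lowest signals well above background on those arrays, -4.29 to -3.98. The size of the change over fl-/Y-Tx cells may thus depend on the background correction. The change was 3.87 in KO/Y over fl-/Y-Tx (SE 0.182, adjusted p = 1.05e-06), 3.25 over fl-/Y+Tx (adjusted p = 1.16e-05) and 0.62 in fl-/Y+Tx over fl-/Y-Tx cells (adjusted p = 0.0364). The last call ended under normexp background correction, at 0.21 (adjusted p = 0.0837), and without fl-/Y-Tx array 2 or 3, fl-/Y+Tx array 1 or 3 or KO/Y array 1 or 3 (adjusted p = 0.0508 to 0.101). On the shared slide Fbp1 and Fbp2 were at 1.66 and 3.41 in KO/Y over fl-/Y+Tx cells (adjusted p = 0.00126 and 0.000365). Pck2, the mitochondrial phosphoenolpyruvate carboxykinase, had 0.127 to 0.131 in KO/Y, 0.121 to 0.130 in fl-/Y+Tx and 0.123 to 0.136 in fl-/Y-Tx cells and passed in no comparison. The endoderm markers given above, which rose in the same comparisons as Fbp1 and Fbp2, were not tested for a part in their change.

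Fbp1 and Fbp2 are neighbours on chromosome 13. Their windows are shown to set 2 genes that rose together side by side, at chr13:62888283-62888532, minus strand for Fbp1 and chr13:62858401-62858650, minus strand for Fbp2, again with ACGTG on either strand in capitals. Fbp2 holds CACGTG, which reads as ACGTG on both strands and begins 42 bases before the start, and Fbp1 holds no match.
Fbp1: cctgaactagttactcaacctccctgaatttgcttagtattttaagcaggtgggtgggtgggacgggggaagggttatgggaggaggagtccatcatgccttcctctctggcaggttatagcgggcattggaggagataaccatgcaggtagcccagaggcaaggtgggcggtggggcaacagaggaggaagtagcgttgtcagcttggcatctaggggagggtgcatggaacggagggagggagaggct
Fbp2: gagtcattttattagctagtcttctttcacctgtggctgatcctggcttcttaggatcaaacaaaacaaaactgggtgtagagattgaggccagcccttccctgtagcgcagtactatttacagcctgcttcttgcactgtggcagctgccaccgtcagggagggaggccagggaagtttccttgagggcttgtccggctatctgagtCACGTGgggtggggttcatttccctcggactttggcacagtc

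**Figure D5:**
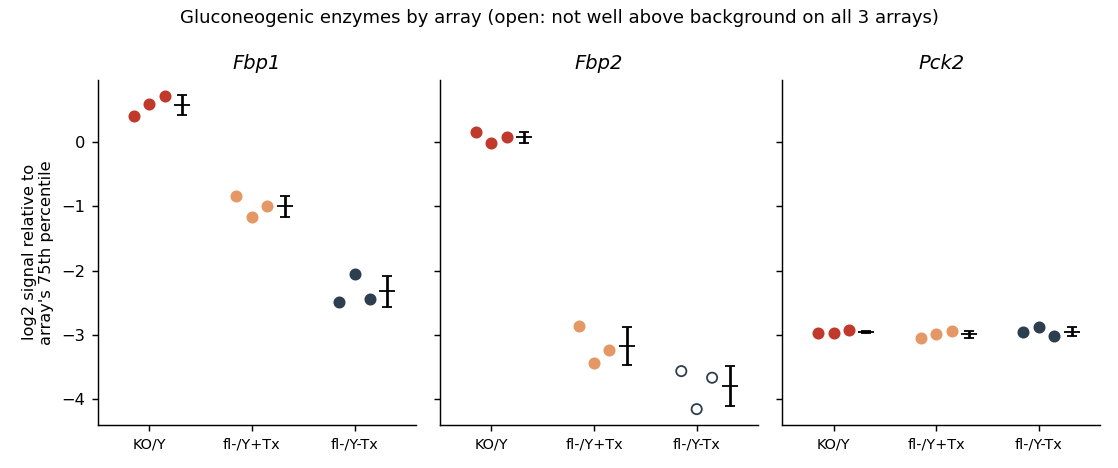
Points are the log2 signal of each array relative to its 75th percentile for Fbp1, Fbp2 and Pck2, with the mean and SD of 3 arrays beside them, on 1 vertical scale; levels of different genes are not comparable. Fbp1 is higher in fl-/Y+Tx than in fl-/Y-Tx cells and higher still in KO/Y cells, Fbp2 stands out in KO/Y cells, and Pck2 stays level.

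Genes around the pathway were counted by lists that hold none of the 36 genes. Of all genes, 20.6% were higher and 26.4% lower in KO/Y over fl-/Y-Tx cells, with a median of -0.06. Of 20 other glycolytic isoenzymes and transporters tested, 5 were higher (25%) and 4 lower (20%), near these shares, with a median of -0.03. Slc2a4, which encodes the insulin-responsive transporter GLUT4, fell by 0.52 (adjusted p = 0.001), Galm, which interconverts the ring forms of glucose, fell by 0.71 (adjusted p = 0.000972), and Slc2a10 rose by 0.61 (adjusted p = 0.000734). Of 10 pentose phosphate pathway genes 2 were higher (20%) and 3 lower (30%), again near the shares of all genes. Among them Tkt, the transketolase, fell by 0.48 (adjusted p = 0.000152). Prps2, which makes phosphoribosyl pyrophosphate, rose by 0.67 (adjusted p = 0.000529). Of 23 tricarboxylic acid cycle genes and their neighbours 1 was higher (4.35%) and 8 lower (34.8%), with a median of -0.14. Me1, the cytosolic malic enzyme, rose by 0.70 (adjusted p = 0.000101) and Idh3a, a subunit of isocitrate dehydrogenase, fell by 0.49 (adjusted p = 0.000402).

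At the entry of pyruvate into mitochondria 4 of 11 genes were higher (36.4%) and 2 lower (18.2%) in KO/Y over fl-/Y-Tx cells. The shares of all genes were 20.6% higher and 26.4% lower. Mpc1, a subunit of the mitochondrial pyruvate carrier, had a signal of 20, 20.3 and 23.0 in KO/Y, 16.4, 17.1 and 19.3 in fl-/Y+Tx and 8.02, 8.42 and 7.44 in fl-/Y-Tx cells. Its rise was over 2-fold over fl-/Y-Tx cells in both other groups, at 1.41 in KO/Y (adjusted p = 6.6e-06) and 1.14 in fl-/Y+Tx cells (adjusted p = 7.12e-05). Pdp2, a phosphatase that reactivates pyruvate dehydrogenase and so works against the Pdk enzymes, had 2.13, 2.26 and 2.21 in KO/Y, 1.54, 1.56 and 1.5 in fl-/Y+Tx and 0.902, 0.927 and 0.812 in fl-/Y-Tx cells. It rose by 1.32 in KO/Y over fl-/Y-Tx (adjusted p = 1.64e-06) and by 0.80 in fl-/Y+Tx over fl-/Y-Tx cells (adjusted p = 0.000103). Pdhb, a subunit of pyruvate dehydrogenase itself, fell by 0.69 in KO/Y over fl-/Y-Tx cells (adjusted p = 6.49e-05).

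Of 26 hypoxia response genes outside glycolysis, 8 were higher (30.8%) and 8 lower (30.8%) in KO/Y over fl-/Y-Tx cells. Of all genes, 20.6% were higher and 26.4% lower. Egln3, a prolyl hydroxylase that hypoxia induces, fell by 1.92 (adjusted p = 6.33e-06) and Bnip3, a mitophagy receptor, by 0.80 (adjusted p = 4.92e-05), while P4ha2, a collagen prolyl hydroxylase, rose by 1.33 (adjusted p = 1.91e-06). Of 18 regulators of glycolytic genes 2 were higher (11.1%) and 8 lower (44.4%). Mycn, a Myc family transcription factor, had a signal of 2.54, 2.39 and 2.82 in KO/Y, 7.89, 7.29 and 8.19 in fl-/Y+Tx and 13.1, 13.7 and 13.0 in fl-/Y-Tx cells, 3 levels that do not overlap. Its log2 fold changes were -2.37 in KO/Y over fl-/Y-Tx (adjusted p = 1.3e-07), -1.60 over fl-/Y+Tx (adjusted p = 7.34e-06) and -0.77 in fl-/Y+Tx over fl-/Y-Tx cells (adjusted p = 0.00032). Ppargc1b, a coactivator of mitochondrial genes, fell by 1.16 in KO/Y over fl-/Y-Tx cells (adjusted p = 0.000466), and Prkaa2, a catalytic subunit of AMP-activated kinase, rose by 0.96 (adjusted p = 0.000395).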

How the data were processed

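Total RNA of mouse ES cells was labelled with Cy3 and hybridised to 9 arrays, 3 in each of 3 groups, described by the study as biological triplicates. No source ties an array to a replicate number, so numbers follow the position on the slide, and nothing else says that cultures were separate, so p-values measure the spread between these arrays, which may be technical. Per the file headers the authors made the deposited intensity values with Agilent Feature Extraction 10.7.3.1: a processed Cy3 intensity per spot on a linear scale after background subtraction. A further table that the authors deposited holds a signal column for each group, which equals the geometric mean of that group's scaled intensities up to a constant; it served as an alternative. Flags per spot, also deposited, mark outliers, saturation and spots well above background. The study used NIA Array Analysis Software.

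Here log2 of the processed intensity minus the 75th percentile of its array was used (R 4.3.3, with version 1.17.8 of the data.table package). Outlier and control spots were left out, spots of a probe averaged, and 31170 probes kept, those that some group had well above background on all of its arrays. A gene was represented by its brightest probe. Such a filter keeps a gene through the group where it is high, as with Hkdc1. Genes were named through RefSeq accessions where these matched, as for 52 of the 55 probes of the 36 genes, and coordinates of probes are those of the array on mm9. All 22433 genes were fitted in 1 limma 3.58.1 model (lmFit, eBayes) of 9 arrays, adjusted by Benjamini-Hochberg, with an adjusted p under 0.05 as the threshold and 2-fold as the size limit. No array had a saturated probe of these genes. Values on every array are given for the hexokinases, each gene called over 2-fold, the 6 largest changes per comparison, and Gapdh, Pkm2, Ldha, Slc2a1, Slc2a3 and Pdk1; from each other list up to 3 genes per comparison could be named, and the per-array values of Mycn, Mpc1 and Pdp2 were chosen after they were seen. The genes and lists were chosen with earlier results of these data known. The method was tested on simulated data. Alternatives were normexp background correction (offset 50), quantile normalization, scaling by the median of bright probes, other filters, slide as a block or the shared slide alone, an intensity trend, only the 6 arrays compared, other probe rules, outlier spots kept, the authors' table and each array left out. Protein sequences were not analysed here.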

Additional observations from a re-analysis of the deposited data

How the results depend on the processing

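Over 19 to 21 alternatives per value, Hk2 fell in Nr0b1 KO/Y over both fl-/Y groups, past the threshold wherever it was tested. Hkdc1 rose in the alternatives that held it, also past the threshold wherever it was tested. Except where no filter was used, its probe was kept through the KO/Y arrays alone, so these calls are no separate support. The median of the genes moved with quantile normalization, to -0.25 in Nr0b1 KO/Y over fl-/Y-Tx, -0.25 over fl-/Y+Tx and 0.02 in Nr0b1 fl-/Y+Tx over fl-/Y-Tx ES cells. With slide as a block 12 genes were lower and 3 higher in Nr0b1 KO/Y over fl-/Y-Tx ES cells, beside 12.2% lower and 9.58% higher of all genes. In Nr0b1 fl-/Y+Tx over fl-/Y-Tx ES cells 2 fitted values of that model were past 2-fold, Fbp1 and Hkdc1. The second was at 1.02, which is a difference between signals below background and no fold. With only the shared slide, 7 genes were lower in Nr0b1 KO/Y over fl-/Y+Tx ES cells, beside 6% of all genes. In Nr0b1 fl-/Y+Tx over fl-/Y-Tx ES cells the fitted values of Fbp1 and Hkdc1 were past 2-fold, Hkdc1 again at 1.02 from below background. These fits rest on fewer arrays, and with 1 fl-/Y+Tx array in the second no gene is called from it. Without a filter on dim probes 3 genes were higher in Nr0b1 fl-/Y+Tx over fl-/Y-Tx ES cells, beside 5.3% of all genes. In Nr0b1 KO/Y over fl-/Y+Tx ES cells 11 were then lower, beside 6.49% of all genes. When a probe had to be well above background on each of the 9 arrays, which leaves out Hkdc1 and Fbp2, 1 gene was higher and over 2-fold in Nr0b1 KO/Y over fl-/Y+Tx ES cells. Of all genes in that fit, 11.9% were higher. Under normexp 0 were over 2-fold in Nr0b1 fl-/Y+Tx over fl-/Y-Tx ES cells, beside 206 of all 22433 genes tested. Fbp1 was then at 0.82 (limma, adjusted p = 7.41e-05). Beyond the fewer probes or arrays named, the cause was not tested.

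Leaving out each array in turn gave 3 to 5 higher genes in Nr0b1 fl-/Y+Tx over fl-/Y-Tx ES cells, beside 8.7% to 12.3% of all genes. There were 3 without fl-/Y-Tx array 2 or 3 or fl-/Y+Tx array 1 or 3. Hk1 ranged from -0.23 to -0.15 there and from 0.11 to 0.25 in Nr0b1 KO/Y over fl-/Y+Tx ES cells, where the median of the genes ranged from -0.24 to -0.18. No paired analysis was possible because the arrays carry no replicate number in the sources used here. Under normexp Hkdc1 was at 2.57 in Nr0b1 KO/Y over fl-/Y-Tx and 2.53 over fl-/Y+Tx ES cells, against fitted values of 5.99 and 5.43 without it.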

Other observations

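Hkdc1, Hk1 and their neighbours did not rise as a block in Nr0b1 KO/Y over fl-/Y+Tx ES cells. In RefSeq order Supv3l1 and Vps26a follow Hkdc1, at log2 fold changes of -0.14 (limma, adjusted p = 0.349) and -0.07 (adjusted p = 0.659), and Tacr2 lies beyond Hk1 and did not pass (adjusted p = 0.992). Srgn, the gene after Vps26a, which encodes the proteoglycan core protein serglycin, was at 4.45 (adjusted p = 3.08e-06). Neurog3, on the other side, fell by 1.31 (adjusted p = 0.000109). In Nr0b1 KO/Y over fl-/Y-Tx ES cells Supv3l1 and Vps26a were lower, at -0.43 (adjusted p = 0.00663) and -0.32 (adjusted p = 0.0294). There Tacr2 did not pass (adjusted p = 0.702), Srgn was at 4.645 (adjusted p = 3.44e-07) and Neurog3 at -0.74 (adjusted p = 0.000769). These neighbours were chosen after the values of Hkdc1 were known, and nothing was tested about them as a region. Whether each was well above background in every group was not examined. The values of Srgn are thus fitted differences and may be no folds.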
